A study of Mus musculus with 6 samples.

Results

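The 9 homeostatic microglia genes P2ry12, Tmem119, Cx3cr1, Csf1r, Sall1, Siglech, Gpr34, Selplg and Fcrls were picked by name as genes associated with resting microglia, and all 9 were found among the 24411 gene rows of the count table. The libraries were made from mouse cortical cultures that are labelled as primary neurons and were dissected at embryonic day 18. The PFF group (3 libraries) received preformed fibrils of mouse α-synuclein, aggregates assembled outside the cell, at 3.45 µM on day 10 in vitro, and the PBS group (3 libraries) is labelled as vehicle. RNA was taken on day 18 in vitro, 8 days after the fibrils. Both groups consist of the same kind of mixed embryonic cortical culture, and neither a strain nor a genotype is labelled. Nothing in the labels says that libraries of 1 group came from separate cultures, so each p-value refers to the spread among these libraries alone, and that spread may be technical. The question was whether the homeostatic programme was higher after PFF, and whether it was as much higher as genes that all myeloid cells use.

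Microglia are the resident macrophages of the brain. In the undisturbed brain they express surface receptors with which they survey neurons, among them the ADP receptor P2RY12 and the fractalkine receptor CX3CR1. They depend on CSF1R signalling for survival, and on TGF-β signalling and the transcription factor SALL1 for their tissue identity. Expression of several of these genes is known to be lost when microglia become activated or are kept in culture, whereas general myeloid genes such as Ptprc (CD45) and Tyrobp (DAP12) are shared with other macrophages and leukocytes.

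The libraries held between 9224974 and 10742383 estimated counts. The 8 listed neuron markers were abundant in both groups and summed to between 4326 and 4780 CPM (counts per 1000000, after TMM scaling) in PFF libraries and between 4134 and 4353 CPM in PBS libraries. Astrocyte markers summed to between 3171 and 4101 CPM in PFF libraries and between 3172 and 4217 CPM in PBS libraries, so glia were present in both groups. Replicate 3 stood apart in both groups: the chi-square per degree of freedom against it ran from 7.18 to 9.20, compared with 2.90 between PFF 1 and PFF 2 and less than that between PBS 1 and PBS 2. The labels name no batch.

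Cx3cr1, Csf1r, Fcrls, Gpr34 and Selplg rose between 2.06-fold and 2.40-fold after PFF, whereas Sall1 and P2ry12 did not pass the test, and Tmem119 and Siglech were too scarce to be tested. With edgeR's quasi-likelihood test and Benjamini-Hochberg adjustment over all 13919 tested genes, 5 members were called higher and 0 lower at an adjusted p under 0.05. Of all tested genes 6.58% were called, 3.98% higher and 2.60% lower. No member was lower at an unadjusted p under 0.05 either (0 in edgeR), and DESeq2 and limma-voom also called 5 members higher and 0 lower. Of the 7 tested members, 2 entered the test through their PFF libraries: the low-count filter asks for at least about 0.981 CPM in 3 libraries, which P2ry12 reached in 3 PFF libraries and 1 PBS library and Selplg in 3 PFF libraries and 2 PBS libraries. In bulk RNA, a change in the number of cells of a type and a change in RNA per cell cannot be told apart.

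**Figure D1:**
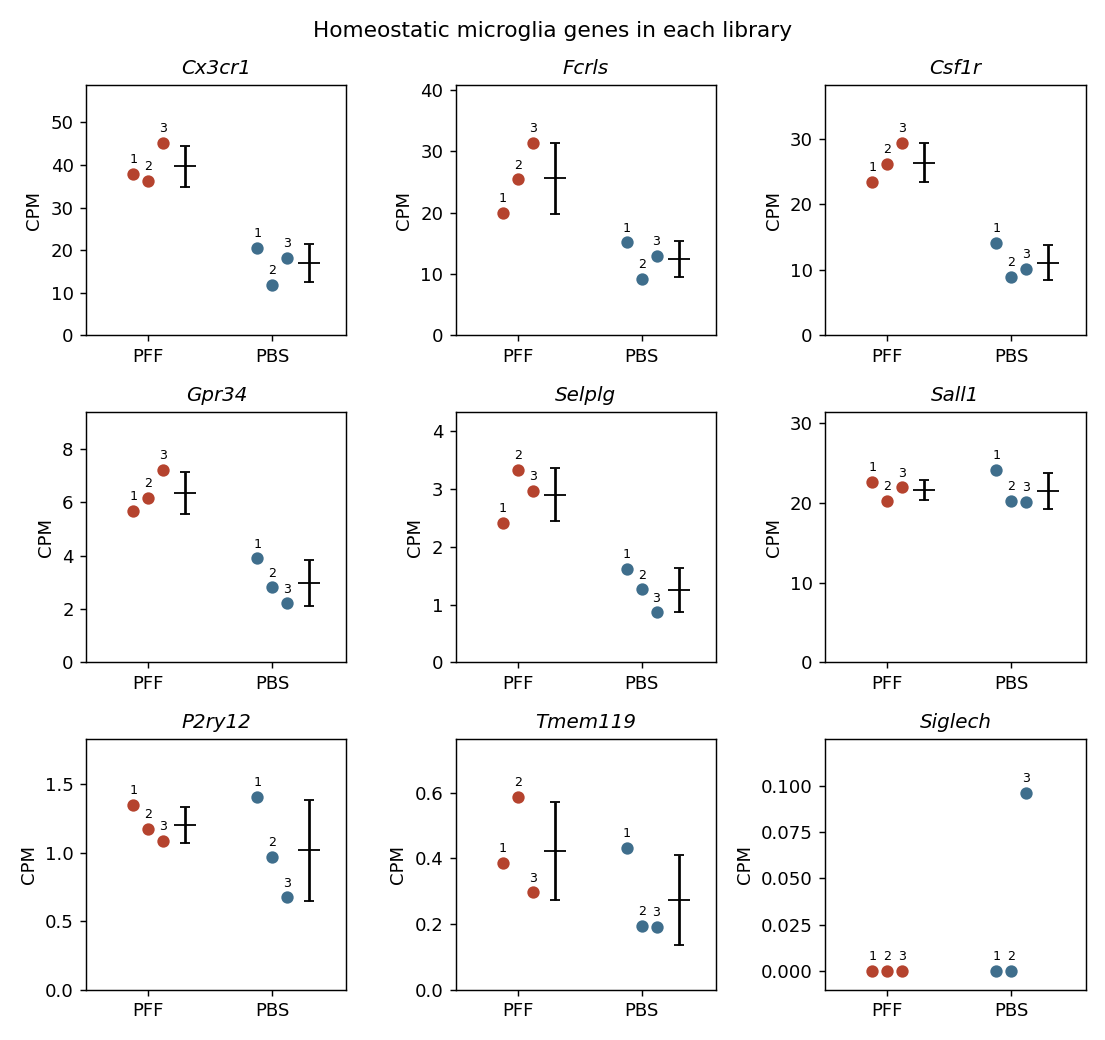
CPM of each of the 9 members in each library (points, numbered by replicate; PFF left, PBS right), with the mean and SD of 3 libraries beside them (not drawn for Siglech, which had 1 count in all). The PFF points lie above the PBS points in the panels of Cx3cr1, Fcrls, Csf1r, Gpr34 and Selplg and overlap them in those of Sall1, P2ry12 and Tmem119.

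Among the surface receptors, Cx3cr1, which encodes the microglial receptor of the neuronal chemokine fractalkine, had 37.8, 36.2 and 45.2 CPM in PFF libraries 1 to 3, against 20.6, 11.9 and 18.3 CPM in PBS libraries 1 to 3. Every PFF library was above every PBS library, and PBS 2 was the lowest. The means were 39.8 ± 4.82 CPM in PFF and 16.9 ± 4.47 CPM in PBS (SD, n = 3 each, here and below), a log2 fold change of 1.24 ± 0.16 (SE) with an adjusted p of 0.000384 in edgeR's test. Its gene spans chromosome 9 from 119901616 to 120069879 in GENCODE vM21 (assembly GRCm38, which mm10 also denotes).

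Csf1r, the receptor for the growth factors CSF1 and IL-34, had 23.5, 26.2 and 29.4 CPM in PFF libraries 1 to 3, against 14.1, 8.92 and 10.2 CPM in PBS libraries 1 to 3. The groups did not overlap. It rose by 1.26 ± 0.15 on the log2 scale (adjusted p of 0.000172, edgeR). Csf1r lies on chromosome 18 from 61100598 to 61132149, and 15.1% of its exonic bases overlap Hmgxb3 on the opposite strand, so some of its reads may belong to that gene if strand was not used in counting.

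Fcrls, a mouse scavenger receptor related to Fc receptors, had 19.9, 25.4 and 31.4 CPM in PFF libraries 1 to 3, against 15.1, 9.21 and 12.98 CPM in PBS libraries 1 to 3. PFF 1 was the lowest PFF library and PBS 1 the highest PBS library, and a gap remained between them. The log2 fold change was 1.04 ± 0.19 (adjusted p of 0.00435, edgeR).

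Gpr34, which encodes a receptor for lysophosphatidylserine, was scarcer but moved alike, with 5.68, 6.16 and 7.21 CPM in PFF libraries 1 to 3, against 3.89, 2.81 and 2.21 CPM in PBS libraries 1 to 3 (log2 fold change 1.10 ± 0.22, adjusted p of 0.00680, edgeR). Selplg, the leukocyte ligand of P-selectin, had 2.41, 3.33 and 2.96 CPM in PFF libraries 1 to 3, against 1.62, 1.26 and 0.865 CPM in PBS libraries 1 to 3. Its rise (1.22 ± 0.29, adjusted p of 0.0225, edgeR) was the least secure of the 5: in edgeR it did not pass without PFF 2, PBS 2 or PBS 3 (adjusted p of 0.115, 0.0612 and 0.0778). The other 4 passed whichever library was left out. For all 5 members the groups did not overlap, as was so for 13.4% of all tested genes in the same direction.

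The members most often used to identify microglia were at the bottom of the range. P2ry12, the ADP receptor that directs microglial processes, had 1.35, 1.17 and 1.09 CPM in PFF libraries 1 to 3, against 1.41, 0.970 and 0.673 CPM in PBS libraries 1 to 3. The groups overlapped, and PBS 1 was above all PFF libraries. These levels rest on 37 counts over the PFF libraries and 30 over the PBS libraries, a ratio of 1.20 with an exact 95% Poisson interval from 0.723 to 2.01 that covers counting error only. The fitted log2 fold change was 0.26 ± 0.36, with a 95% interval from −0.51 to 1.03 (adjusted p of 0.731, edgeR), so a doubling could not be told from no change at this depth.

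Tmem119, a membrane protein widely used as a marker that separates microglia from other macrophages, had 4, 6 and 3 counts in PFF libraries 1 to 3, against 4, 2 and 2 counts in PBS libraries 1 to 3. The ratio over all libraries was 1.58 (exact 95% Poisson interval 0.608 to 4.41). Siglech, a sialic acid-binding lectin that signals through the adaptor encoded by Tyrobp, had 0 counts in the PFF libraries and 1 count in PBS 3. A count of 0 over the PFF libraries allows up to 0.0976 CPM, and no fold is given.

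Sall1, the zinc-finger transcription factor of microglial identity, is also expressed by neural progenitors. It had 22.6, 20.2 and 21.9 CPM in PFF libraries 1 to 3, against 24.1, 20.3 and 20.1 CPM in PBS libraries 1 to 3. The means were 21.6 ± 1.22 CPM in PFF and 21.5 ± 2.28 CPM in PBS. Unlike P2ry12, Sall1 was abundant enough for a narrow interval: its log2 fold change was 0.01 ± 0.11, with a 95% interval from −0.22 to 0.24 (adjusted p of 0.970, edgeR).

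Scaled by exonic length, the members kept different orders in the groups. Spread here is the SD of each gene taken alone, and the orders were not compared library by library. In PFF libraries Fcrls was highest at 10.96 ± 2.46 CPM per kilobase and Cx3cr1 next at 8.82 ± 1.07, and this pair was within its spread. Csf1r followed at 4.57 ± 0.515 and Sall1 at 4.10 ± 0.232 CPM per kilobase, also within their spread, then Gpr34 at 3.04 ± 0.374. Selplg (0.678 ± 0.108), P2ry12 (0.472 ± 0.0523) and Tmem119 (0.183 ± 0.0643) were lower, and Siglech had 0 counts. In PBS libraries Fcrls (5.33 ± 1.29 CPM per kilobase), Sall1 (4.08 ± 0.432) and Cx3cr1 (3.75 ± 0.992) led within their spread, ahead of Csf1r (1.92 ± 0.464) and Gpr34 (1.42 ± 0.408), which were within their spread of each other. P2ry12 (0.399 ± 0.145) stood above Selplg (0.292 ± 0.0887) there, again within the spread, and Tmem119 was at 0.118 ± 0.0597.

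The proximal promoters of Cx3cr1 and Fcrls, which rose, and of P2ry12, which did not pass, are shown because PU.1, the myeloid factor encoded by Spi1, binds purine-rich sites built around GGAA, and Spi1 itself rose by 2.09 ± 0.22 on the log2 scale (adjusted p of 6.55e-05, edgeR). Each is the 250 bases before the RefSeq start site (build GRCm38.p6, minus strand), 5′ to 3′, with AGGAAGT or its reverse complement ACTTCCT in capitals. Cx3cr1 is taken from chr9:120068297-120068546, Fcrls from chr3:87263525-87263774 and P2ry12 from chr3:59262986-59263235.
Cx3cr1: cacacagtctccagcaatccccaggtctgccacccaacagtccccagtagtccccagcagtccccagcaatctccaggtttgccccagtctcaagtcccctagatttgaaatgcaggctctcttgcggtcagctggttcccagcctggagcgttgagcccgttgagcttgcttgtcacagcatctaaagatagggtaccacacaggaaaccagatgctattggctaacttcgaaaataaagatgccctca
Fcrls: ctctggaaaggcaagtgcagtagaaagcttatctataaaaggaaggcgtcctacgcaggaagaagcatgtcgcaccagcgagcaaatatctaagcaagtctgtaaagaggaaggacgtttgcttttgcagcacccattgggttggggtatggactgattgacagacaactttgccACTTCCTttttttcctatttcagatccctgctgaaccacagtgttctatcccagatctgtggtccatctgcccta
P2ry12: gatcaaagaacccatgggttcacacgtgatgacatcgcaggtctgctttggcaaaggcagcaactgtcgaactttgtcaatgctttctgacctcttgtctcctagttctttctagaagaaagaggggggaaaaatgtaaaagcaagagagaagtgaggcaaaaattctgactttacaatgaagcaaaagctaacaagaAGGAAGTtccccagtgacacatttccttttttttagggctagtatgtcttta
The 7 letters AGGAAGT (which contain the shorter GGAAGT) were found on either strand in 7.69% of the 32851 RefSeq promoter windows of this length. The P2ry12 window holds them from position −52 to −46 on the strand of the gene, and the Fcrls window from −75 to −69 on the other strand. The Cx3cr1 window does not hold them, although it holds the shorter GGAA. A window of Sall1, which did not pass, also holds them, from −181 to −175 on the strand of the gene, and the other Sall1 windows do not. The letters were chosen after the sequences were seen, and a match or its absence describes the letters only. Whether PU.1 had a part in the members' changes was not tested. Of the 9 members, 5 had a promoter entry in the RefSeq table.

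General myeloid genes were higher throughout. All 18 listed ones were called higher in PFF (3.98% of all tested genes were), with a median log2 fold change of 1.48, compared with 1.10 for the 7 tested homeostatic members and 0.00 for all tested genes. The 6 most abundant were Coro1a, an actin regulator (83.8 ± 2.54 CPM in PFF and 68.8 ± 4.16 CPM in PBS, 0.28 ± 0.08), the signalling adaptor Tyrobp (1.47 ± 0.18), cathepsin S (Ctss, 1.42 ± 0.14), the lysosomal gene Laptm5 (1.49 ± 0.15), the actin bundler Lcp1 (1.97 ± 0.20) and the Fc receptor Fcgr3 (0.98 ± 0.12). In edgeR, Coro1a did not pass without any 1 library other than PFF 3 (adjusted p up to 0.197), nor in DESeq2 (0.0665). Aif1 did not pass without PBS 2 or PBS 3 (up to 0.0631). The other 16 passed whichever library was left out. With replicates 1 and 2 only, 16 of the 18 were called higher, and Lcp1 (adjusted p of 0.124, edgeR) and Aif1 (0.0620) did not pass.

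Single members lay at the low end of this range. Of the 18 general myeloid genes, 14 had a larger log2 fold change than Csf1r or Cx3cr1, 16 a larger one than Selplg, Gpr34 or Fcrls, and 18 a larger one than P2ry12 or Sall1. Among the larger rises were those of Spi1, Lcp1 and the β2 integrin Itgb2 (1.92 ± 0.19), of which Spi1 and Itgb2 were named after their values were seen. The difference between the median of the tested members and that of the general myeloid genes was −0.38 on the log2 scale, and is given as a description without a test. With replicates 1 and 2 only, it was −0.48. It was −0.37 without Itgam, of whose exonic bases 68.7% overlap another gene model on the same strand.

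**Figure D2:**
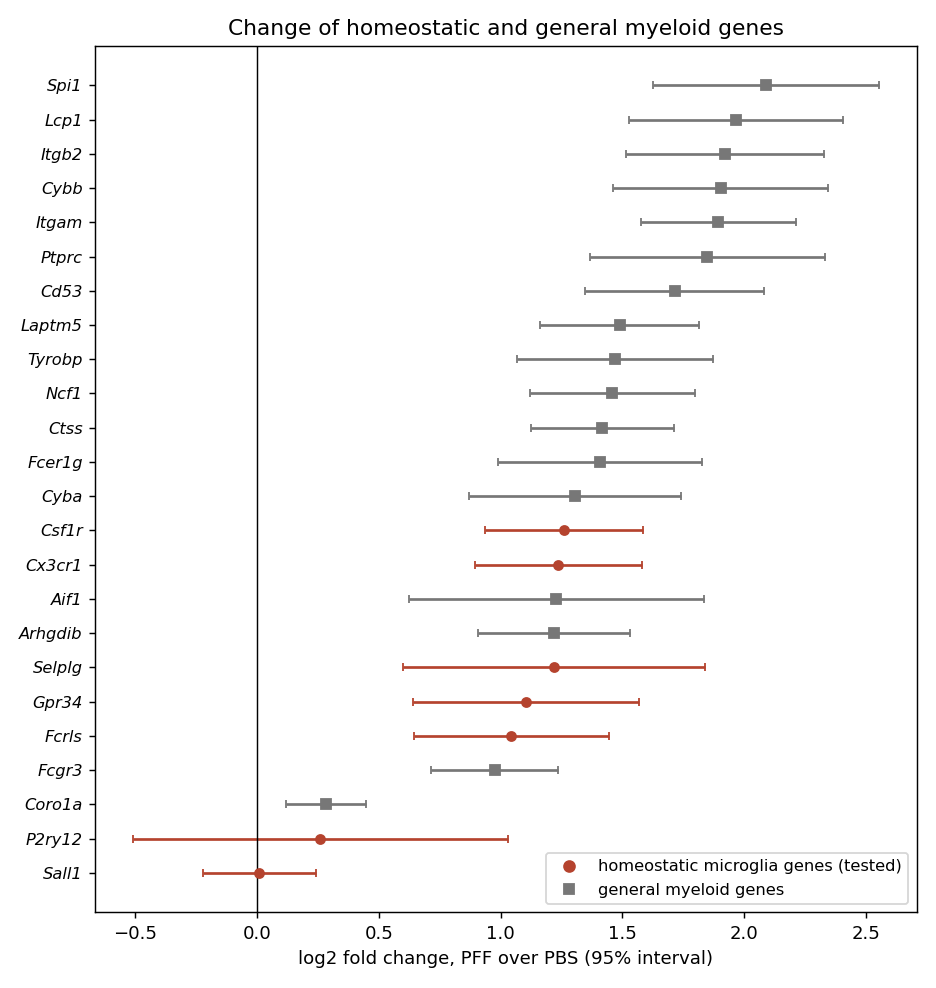
Log2 fold change (PFF over PBS) with its 95% interval from edgeR for the 7 tested members (red circles) and the general myeloid genes (grey squares; 1 of the 18 is not drawn), in order of size. Csf1r, Cx3cr1, Selplg, Gpr34 and Fcrls lie between 1.04 and 1.26, inside the lower part of the general myeloid range, and P2ry12 and Sall1 lie below all of those drawn.

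To compare each member with the myeloid genes directly, its counts were expressed per 100 summed counts of the 18 general myeloid genes of the same library. That sum was between 4781 and 5332 counts in PFF libraries and between 1903 and 2277 counts in PBS libraries. Cx3cr1 had 7.83, 7.74 and 8.59 counts per 100 in PFF libraries 1 to 3, against 8.34, 6.46 and 9.09 in PBS libraries 1 to 3. Csf1r had 4.86, 5.61 and 5.59 per 100 in PFF libraries 1 to 3, against 5.71, 4.83 and 5.07 in PBS libraries 1 to 3. For both genes the groups overlapped.

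P2ry12 had 0.279, 0.251 and 0.206 per 100 in PFF libraries 1 to 3, against 0.571, 0.525 and 0.335 in PBS libraries 1 to 3. Sall1 had 4.68, 4.33 and 4.16 per 100 in PFF libraries 1 to 3, against 9.79, 10.98 and 10.0 in PBS libraries 1 to 3. For this pair every PFF library was below every PBS library, and the exact two-sided permutation test over the 6 libraries gave its smallest possible value, p = 0.1. On this scale 95.6% of all tested genes had every PFF library below every PBS library. Tmem119 overlapped between the groups, at 0.0871 ± 0.0352 per 100 in PFF and 0.125 ± 0.0437 in PBS (exact permutation p = 0.3).

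**Figure D3:**
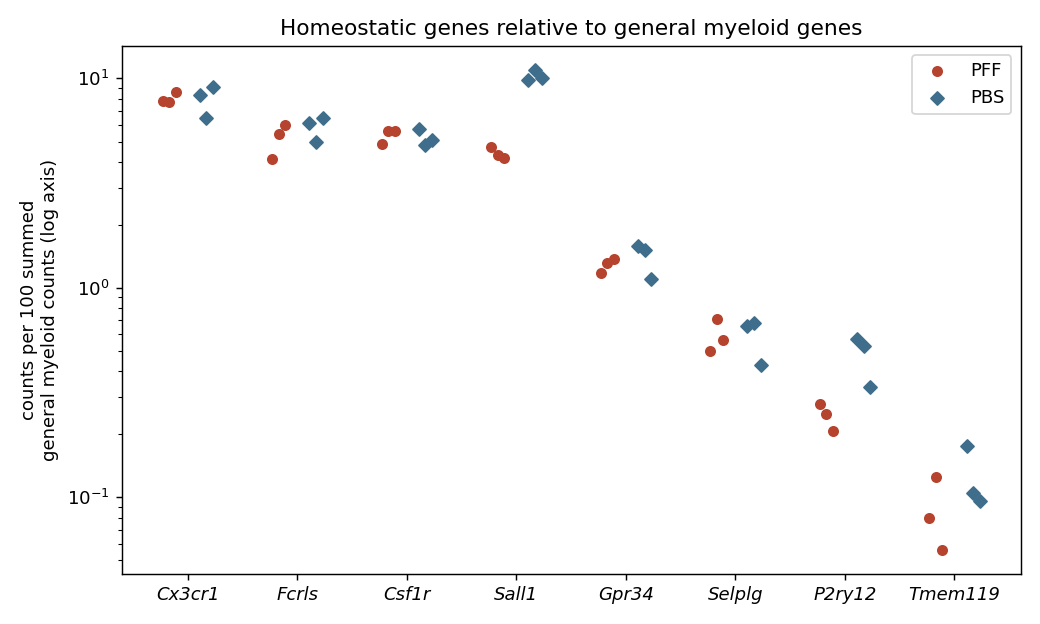
Counts of each member per 100 summed counts of the 18 general myeloid genes in the same library, on a log axis (PFF circles left, PBS diamonds right, 1 point per library; Siglech is left out because 5 of its 6 values are 0). The groups overlap for Cx3cr1, Fcrls, Csf1r, Gpr34, Selplg and Tmem119, and the PFF points lie below the PBS points for Sall1 and P2ry12.

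The same difference was tested in edgeR with the summed general myeloid counts in place of the library size, over all 13919 genes. Relative to that sum, the log2 change was 0.01 for Cx3cr1 (95% interval −0.35 to 0.37), 0.04 for Csf1r (−0.34 to 0.41), −0.00 for Selplg (−0.68 to 0.67), −0.12 for Gpr34 (−0.63 to 0.38) and −0.18 for Fcrls (−0.56 to 0.19), and none of these 5 passed (adjusted p of 0.341 or more). The intervals do not show that they moved exactly alike. Sall1 was lower relative to the sum by −1.22 (−1.59 to −0.86, adjusted p of 1.17e-10) and P2ry12 by −0.96 (−1.78 to −0.14, adjusted p of 0.0232). Since 96.4% of all tested genes were lower relative to the myeloid sum and 0.532% higher, those 2 calls are shared with most of the transcriptome and are not particular to Sall1 and P2ry12. The P2ry12 call did not hold in DESeq2 (adjusted p of 0.0633) nor in edgeR without PFF 3, PBS 1 or PBS 2 (0.0751, 0.103 and 0.0619), and over all alternatives its adjusted p ran from 0.00456 to 0.103.

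The sum depends on Coro1a, which made up between 15.8% and 18.5% of it in PFF libraries and between 26.9% and 39.9% in PBS libraries. Without Coro1a, the relative log2 change was −0.27 for Csf1r, −0.30 for Cx3cr1, −0.31 for Selplg, −0.44 for Gpr34 and −0.49 for Fcrls. None of the 5 passed (adjusted p of 0.0610 for Fcrls and at least 0.164 for the others, edgeR). When each general myeloid gene was given the same weight, Fcrls was lower relative to them by −0.50 (adjusted p of 0.0463, edgeR) and the other 4 did not pass. The share of all tested genes lower on that scale is not given here. Relative to the plain sum it was 96.4%, so this call cannot be read as particular to Fcrls.

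Set against Csf1r, which itself rose, there were 5.74, 4.48 and 3.69 P2ry12 counts per 100 Csf1r counts in PFF libraries 1 to 3, against 10.0, 10.9 and 6.60 in PBS libraries 1 to 3 (exact permutation p = 0.1, the smallest possible). Per Csf1r count, 95.2% of the other tested genes likewise had every PFF library below every PBS library, so this is not particular to P2ry12. Cx3cr1 overlapped between the groups on this scale, at 161, 138 and 154 counts per 100 Csf1r counts in PFF libraries 1 to 3, against 146, 134 and 179 in PBS libraries 1 to 3 (exact permutation p = 1).

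With replicates 1 and 2 only, the same 5 members passed and no other did. The log2 fold changes in edgeR were then 1.21 ± 0.19 for Cx3cr1, 1.13 ± 0.16 for Csf1r, 0.91 ± 0.19 for Fcrls, 0.83 ± 0.24 for Gpr34 and 1.00 ± 0.35 for Selplg (adjusted p of 0.0487 for Selplg). Sall1 was at −0.04 ± 0.12 and P2ry12 at 0.10 ± 0.43.

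Homeostatic genes outside the 9 also held both called and uncalled genes. Of the 16 listed, 10 were tested, with a median of 1.10. Of these, 7 were called higher (3.98% of all tested genes were) and 0 lower (2.60%). Among the first 6 by abundance were the matricellular gene Sparc (0.45 ± 0.16, adjusted p of 0.133), the checkpoint receptor Vsir (0.52 ± 0.14), the G-protein regulator Rgs10 (−0.08 ± 0.14, adjusted p of 0.802) and Olfml3 (11.4 ± 3.38 CPM in PFF and 4.88 ± 0.976 CPM in PBS, 1.23 ± 0.22). Sparc is also made by astrocytes and endothelial cells. Vsir did not pass in edgeR without any 1 library other than PBS 3 (adjusted p up to 0.164), nor did Adap2 (1.01 ± 0.27) without any 1 library (0.0519 to 0.137). Among genes specific to microglia in the mouse brain, named after their values were seen, P2ry13, the neighbour and relative of P2ry12, averaged 0.944 CPM in PFF and 0.534 CPM in PBS, and the fructose transporter gene Slc2a5 0.131 CPM in PFF and 0.169 CPM in PBS. Both fell below the filter.

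Of 15 listed ligands and regulators of the members, 14 were tested, with a median of 0.39. Of these, 7 were called higher (3.98% of all tested genes were) and 0 lower (2.60%). Cx3cl1, the neuronal ligand of CX3CR1, had 534 ± 62.7 CPM in PFF and 399 ± 33.1 CPM in PBS (0.42 ± 0.10, adjusted p of 0.0183). The CSF1R ligands did not pass: Csf1 had 24.1 ± 4.25 CPM in PFF and 23.1 ± 2.66 CPM in PBS (0.06 ± 0.13, adjusted p of 0.847), and Il34 had 6.69 ± 0.901 CPM in PFF and 6.04 ± 0.883 CPM in PBS (0.14 ± 0.17, adjusted p of 0.688). The TGF-β receptor gene Tgfbr1 rose by 0.53 ± 0.11, the neuronal and myeloid factor Mef2c by 0.35 ± 0.10, while Mef2a (0.26 ± 0.08, adjusted p of 0.0675) and the TGF-β effector Smad3 (−0.04 ± 0.11, adjusted p of 0.860) did not pass. Named after their values were seen, Tgfb1 (1.47 ± 0.18), Tgfbr2 (0.78 ± 0.12) and the myeloid factors Irf8 (1.54 ± 0.20) and Runx1 (2.13 ± 0.37) also rose. Runx1 entered the test through its PFF libraries alone, so its rise is given as a description only. It had 39, 28 and 20 counts in PFF libraries 1 to 3, against 9, 5 and 5 counts in PBS libraries 1 to 3. Cx3cl1 did not pass without PFF 2 or PBS 1 (adjusted p up to 0.124), Tgfbr1 without PBS 1 (0.0549), and Mef2c without any 1 library other than PFF 3 (up to 0.250). The list had 4 genes higher without PBS 1.

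**Figure D4:**
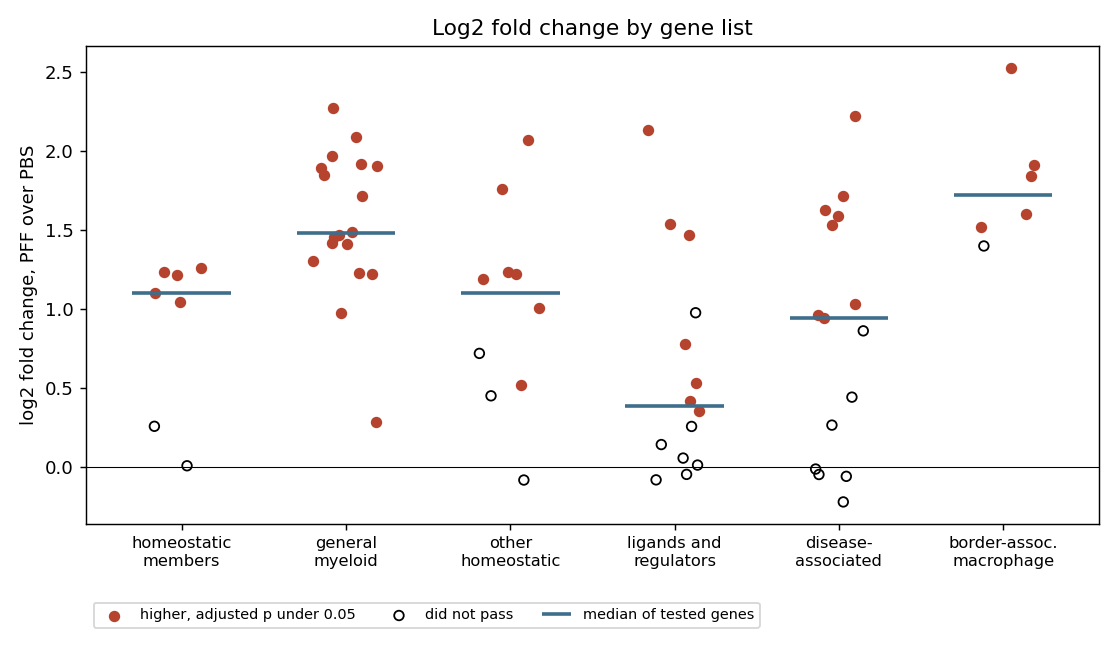
Log2 fold change (PFF over PBS) of the tested genes of 6 lists (points, filled where the adjusted p in edgeR was under 0.05) with each list's median (blue line). All 18 general myeloid genes are filled, whereas the homeostatic members and the other homeostatic genes each have open points near 0.

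Some markers of border-associated macrophages, which line vessels and meninges, were also higher. Of 12 such markers 6 were tested and 5 were called higher (3.98% of all tested genes were), with a median of 1.72. Their summed level was between 111 and 118 CPM in PFF libraries and between 21.6 and 42.6 CPM in PBS libraries. Most of it was Stab1 (84.8 ± 1.70 CPM in PFF and 22.6 ± 7.34 CPM in PBS), followed by Ms4a7 (1.60 ± 0.22), Folr2 (1.52 ± 0.27), Mrc1 (1.84 ± 0.35), Pf4 (1.40 ± 0.40, adjusted p of 0.0556) and Siglec1 (2.53 ± 0.53). Stab1 did not pass with replicates 1 and 2 only (adjusted p of 0.0842, edgeR), nor Siglec1 without PFF 2 (0.0695), and 63.1% of the exonic bases of Folr2 overlap a gene model on the opposite strand. Of the untested markers, Cd163, Cbr2, F13a1, Clec10a and Cd209f had at most 1 count in every library. Lyve1, also untested, had 9, 2 and 5 counts in PFF libraries 1 to 3, against 1, 5 and 4 counts in PBS libraries 1 to 3. The part of border-associated macrophages in the members' rise was not tested.

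The markers of other brain cells differed in direction between lists. Of 8 neuron markers 1 was called higher and 0 lower, with a median log2 fold change of 0.19. At an unadjusted p under 0.05 in edgeR, 4 neuron markers were higher and 0 lower, and DESeq2 called 2 higher. Of 7 astrocyte markers 0 were called higher and 2 lower (median −0.21). Of 7 oligodendrocyte lineage markers 4 were called higher and 3 lower (median 0.71). Among all tested genes, 3.98% were called higher and 2.60% lower. Of 5 endothelial markers 2 were tested and 0 called in edgeR, DESeq2 or limma-voom (1 was higher at an unadjusted p under 0.05), with a summed level between 2.41 and 3.75 CPM in PFF libraries and between 2.42 and 2.60 CPM in PBS libraries. In the lists with 0 genes called lower in edgeR, DESeq2 and limma-voom also called 0 lower, and at an unadjusted p under 0.05 the disease-associated list had 1 lower and the others 0. Blood cell markers were near 0. The 9 monocyte and neutrophil markers in the table summed to between 0.0978 and 0.202 CPM in PFF libraries and to at most 0.288 CPM in PBS libraries, and the 7 lymphocyte markers to between 0.289 and 0.296 CPM in PFF libraries and between 0.0970 and 0.192 CPM in PBS libraries. Of the 15 disease-associated microglia genes, which are induced in microglia around protein aggregates, 8 were called higher and 0 lower, with a median of 0.94. Of the 6 most abundant, Ctsd (1.03 ± 0.12), Ctsb (0.96 ± 0.12), Spp1 (1.72 ± 0.19) and Gpnmb (1.53 ± 0.16) rose, and Apoe (0.27 ± 0.15, adjusted p of 0.348) and Fabp5 (−0.22 ± 0.08, adjusted p of 0.146) did not pass. Spp1 (adjusted p of 0.148, edgeR) and Gpnmb (0.163) did not pass with replicates 1 and 2 only. On the same strand, 34.4% of the exonic bases of Ctsd and 18.75% of those of Spp1 overlap another gene model.

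Over the 6 libraries, the genes outside these lists whose log2 CPM was most like the members' mean scaled level included Rassf4, Itpkc, C1qb and Ctnnbl1 (Pearson r between 0.977 and 0.986, across 6 libraries of which 3 share a treatment). Of the 11448 genes compared, 183 had an r above 0.9. Only C1qb, a complement subunit made by microglia (63.2 ± 7.65 CPM in PFF and 24.5 ± 9.05 CPM in PBS), and Rassf4 (11.3 ± 1.35 CPM in PFF and 6.92 ± 1.69 CPM in PBS) of these 4 were called higher. Among the members, r with their own mean was 0.972 for Gpr34, 0.955 for Csf1r, 0.747 for P2ry12 and 0.520 for Sall1. That mean includes the member itself, which raises r, so these values cannot be set beside those of the outside genes.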

How the data were processed

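RNA of 6 libraries (3 PFF, 3 PBS) was extracted with a column kit and made into directional libraries, per the labels' protocols. The authors deposited unscaled estimated counts for each gene, of which 8.69% were not whole numbers. Trim Galore 0.6.6, STAR 2.7.9a, DESeq2 1.38.3 and mm10 are named in the submitters' processing notes. For counting, the tool, strand setting and gene models were not given in the sources used here.

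Columns were matched to samples by name and groups came from titles. Counts were rounded and analysed in R 4.3.3 with edgeR 4.0.16 (filterByExpr, which removed 10492 of 24411 genes, TMM, robust quasi-likelihood F-test on the group, two-sided, adjusted p under 0.05) and limma 3.58.1. The common dispersion was 0.00642. The standard error was the log2 fold change divided by the square root of F. Log2 CPM used a prior count of 2. The comparison with the myeloid genes took their summed counts as a fixed offset, so the error of the sum is not in its p. The steps were also run on simulated counts, which gave every gene the same dispersion and held no replicate that stood apart, unlike these data. No result here rests on that run. Library totals of 9224974 to 10742383 counts set the precision, and intervals on counts cover counting error only, with a floor of 3 counts.

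The members, the 12 gene lists and the tests were chosen with earlier results of these data known. The rule named all members, and from each other list the 6 genes with the highest mean CPM over all libraries; some genes that the rules named are not reported here. Older symbols were matched through RefSeq (Vsir). Exonic lengths, coordinates and overlaps came from GENCODE vM21. Alternatives were other scalings, filters, tests (DESeq2 1.42.0, limma-voom), a replicate block, replicate 3 as a batch term, replicates 1 and 2 only, other forms of the myeloid sum and leaving out each library in turn.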

Additional observations from a re-analysis of the deposited data

How the results depend on the processing

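Leaving out each library in turn left between 4 and 5 members called higher (Selplg was the one lost), between 16 and 18 general myeloid genes called higher, and between 1 and 2 members called lower relative to the myeloid sum (P2ry12 was the one lost). The difference of medians then ran from −0.46 to −0.30. The count over all tested genes ran from 412 to 1856, against 916 with all libraries, and was 2005 with a batch term for replicate 3 and 2394 when replicate 3 was dropped from both groups. The members called lower relative to the myeloid sum numbered 1 with at least 50 counts in 3 libraries, a filter that removed P2ry12, and 1 in DESeq2, where the cause was not tested. That filter also left 3 other homeostatic genes and 2 border-associated markers called higher. The replicate block gave 1997 calls over all genes and 5 members higher, and Gpnmb did not pass in it (adjusted p of 0.0663). The main fit did not pair the libraries by number. Deviations from group means correlated by 0.0919, 0.109 and 0.202 in same-numbered pairs 1 to 3, against −0.207 to 0.128 in other pairs. The replicate 3 pair thus had the highest value. These values do not settle whether same-numbered libraries belong together, which was not tested. Among 16 or 17 alternatives a member, Cx3cr1 ranged from 1.03 to 1.39, Csf1r from 1.12 to 1.46 and Sall1 from −0.04 to 0.10 on the log2 scale. P2ry12, Tmem119 and Siglech rest on few counts, so their changes were not resolved at this depth.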
